A study of Mus musculus with 6 samples.

Results

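The keratins described here are 10 epithelial intermediate filament genes. They are the simple keratins Krt7, Krt8, Krt18, Krt19 and Krt20, the basal keratins Krt5, Krt14, Krt15 and Krt17, and Krt80. They were taken by name from the 19937 genes that the platform annotation names with a single symbol, and all 10 were measured, each by 1 probe set. The study put RNA of A316 cells, a mouse primary adenocarcinoma line with a cebp alpha knock out, on 6 Affymetrix arrays. The cells of 3 arrays were treated with PTC-209, a compound that the labels describe as inhibiting Bmi, in 0.5% DMSO, and those of the other 3 with 0.5% DMSO alone. Both groups carry the cebp alpha knock out and come from 1 line, so neither group shows keratin levels with intact C/EBP alpha, and the sources used here give neither dose nor exposure time. Nothing in the labels says that replicates are separate cultures. The p-values therefore measure only the spread between these arrays, which may be technical.

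Keratins are the intermediate filaments of epithelial cells, and a filament is built from pairs of 1 type I and 1 type II keratin. Single-layered epithelia such as those of the alveoli, gut and glands use the pair Krt8 and Krt18, often with Krt7, Krt19 or Krt20. The basal layer of stratified epithelia uses Krt5 and Krt14, with Krt15 and Krt17. Pathologists read keratins, Krt7 and Krt20 among them, to tell carcinomas apart. Filaments attach to desmosomes between cells and to hemidesmosomes at the base of the cell.

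In cells given PTC-209 all 5 simple keratins and Krt80 fell, while 0 of the 4 basal keratins passed the same test. Krt5, Krt15 and Krt17 lay under the median level of all probe sets in both groups, where a change is hard to see. Krt7 was 2.85-fold lower (95% confidence interval 2.39 to 3.41), Krt18 2.06-fold (1.75 to 2.43), Krt19 1.99-fold (1.73 to 2.29) and Krt8 1.77-fold (1.50 to 2.09). A gene was said to rise or fall when its Benjamini-Hochberg adjusted p in limma was under 0.05. Of the 28191 probe sets tested 11.8% fell and 11.8% rose by that rule. For the 6 keratins that fell, all 3 PTC-209 arrays lay below all 3 DMSO arrays, as they did for 16.9% of the probe sets tested. The median log2 difference was -0.99 over the simple keratins and 0.07 over the basal keratins, against 0.03 over all probe sets tested. The genes were chosen with earlier results of these data known, so the counts are a description. An array of a cell population does not tell fewer cells with a keratin from less of its mRNA per cell.

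**Figure D1:**
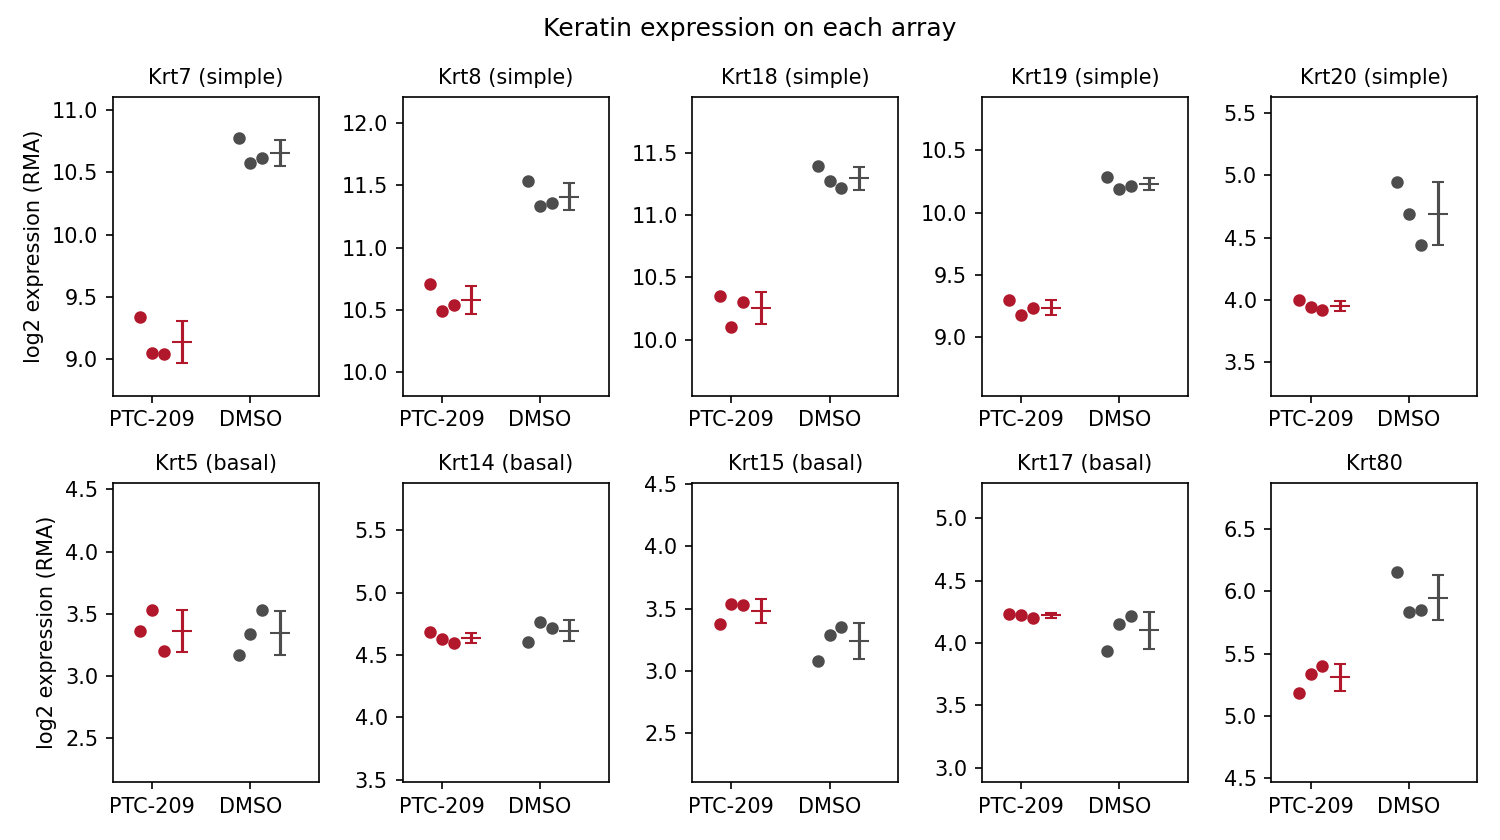
Log2 expression of the 10 keratins on each array (points, left to right replicate 1 to 3) with the mean and SD of 3 arrays (bars), PTC-209 left of DMSO; every panel spans the same range of log2 units around its own level. The PTC-209 arrays of Krt7, Krt8, Krt18, Krt19, Krt20 and Krt80 lie below the DMSO arrays, and those of Krt5, Krt14 and Krt17 overlap them.

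Krt7, a type II keratin of simple and ductal epithelia, had the largest fall of the 10. Its log2 values were 9.34, 9.05 and 9.04 on the PTC-209 arrays, against 10.78, 10.57 and 10.61 on the DMSO arrays. The groups were separated by more than a log2 unit, and the spread within a group was small (9.14 ± 0.17 with PTC-209 and 10.66 ± 0.11 with DMSO, SD, n = 3 each). The log2 difference was -1.51 (SE 0.114, limma adjusted p = 1.21e-05), and 1.64% of all probe sets tested had a lower one.

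Krt8, the type II partner of the core simple pair, had log2 values of 10.71, 10.49 and 10.54 with PTC-209, against 11.53, 11.33 and 11.36 with DMSO. Replicate 1 was the highest array of both groups, and the groups did not overlap. The log2 difference was -0.83 (SE 0.105, limma adjusted p = 0.000323). Krt18, its type I partner, had values of 10.35, 10.11 and 10.30 with PTC-209, against 11.40, 11.28 and 11.22 with DMSO. Here too every PTC-209 array lay below every DMSO array, with a log2 difference of -1.04 (SE 0.105, limma adjusted p = 7.34e-05).

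The balance of this pair was followed within each array as the log2 value of Krt8 minus that of Krt18, in which only a change, not the level, can be read. The value was 0.36, 0.39 and 0.24 with PTC-209, against 0.14, 0.06 and 0.14 with DMSO, and the groups did not overlap. It was higher by 0.22 with PTC-209, so Krt18 was the partner with the larger fall. The exact two-sided permutation test over the 6 arrays gave p = 0.1 (0.2 adjusted over the 2 pairs compared). That is the smallest p this test can give with 3 against 3 arrays, so the test cannot decide whether the difference passes 0.05.

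Krt19, a small type I keratin of ductal and airway epithelia, had log2 values of 9.30, 9.18 and 9.23 with PTC-209, against 10.29, 10.19 and 10.21 with DMSO. It had the smallest spread of the 4 bright simple keratins in both groups (SD 0.061 with PTC-209 and 0.049 with DMSO, n = 3 each). Its log2 difference was -0.99 (SE 0.091, limma adjusted p = 4.21e-05). Krt20, a type I keratin of gut and urothelial surface cells, was a dim member, with values of 3.997, 3.940 and 3.919 on the PTC-209 arrays, against 4.944, 4.690 and 4.441 on the DMSO arrays. Its PTC-209 mean lay under 4.33, the median level of all probe sets tested, so the size of its difference is less certain than for the bright keratins. The groups did not overlap and the log2 difference was -0.74 (SE 0.129, limma adjusted p = 0.00227), with a wider spread among DMSO arrays (SD 0.25) than among PTC-209 arrays (SD 0.041).

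Krt80 is a type II keratin that belongs to neither class. Its log2 values were 5.19, 5.34 and 5.40 with PTC-209, against 6.15, 5.84 and 5.85 with DMSO. The groups did not overlap, and the log2 difference was -0.64 (SE 0.117, limma adjusted p = 0.00311), a 1.56-fold lower level (95% confidence interval 1.30 to 1.87). DMSO replicate 1 was the highest array for Krt80 and also for the 5 simple keratins.

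The basal keratins were dim. Of the 4, Krt14 reached the median level of all probe sets, and Krt5, Krt15 and Krt17 did not reach it in either group. None passed the test in limma, and 0 of the 4 had an unadjusted p under 0.05. Krt5, the type II keratin of basal cells, had log2 values of 3.36, 3.53 and 3.20 with PTC-209, against 3.17, 3.34 and 3.53 with DMSO. The groups overlapped and the log2 difference was 0.02, with a 95% confidence interval from -0.27 to 0.30. Krt14, its type I partner, had values of 4.68, 4.63 and 4.60 with PTC-209, against 4.60, 4.76 and 4.72 with DMSO. They overlapped as well, and the difference was -0.06 (-0.27 to 0.15).

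Krt15, a type I keratin of basal and stem-like cells, had values of 3.37, 3.54 and 3.53 with PTC-209, against 3.08, 3.29 and 3.35 with DMSO. All 3 PTC-209 arrays lay above all 3 DMSO arrays, as for 20.3% of the probe sets tested, at levels under the median in both groups. The log2 difference was 0.24 (SE 0.108) with a limma adjusted p of 0.152. Krt17, a type I keratin of basal and injured epithelium, had values of 4.23, 4.23 and 4.20 with PTC-209, against 3.93, 4.15 and 4.21 with DMSO. The groups overlapped and the difference was 0.12 (-0.11 to 0.35). The intervals of Krt5, Krt14 and Krt17 exclude a fall as large as that of any of the simple keratins, but at these low levels a probe set can read a real change as a small one. The within-array difference of Krt5 and Krt14 changed by 0.08 (exact two-sided permutation test, p = 0.5; 0.5 adjusted over the 2 pairs).

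**Figure D2:**
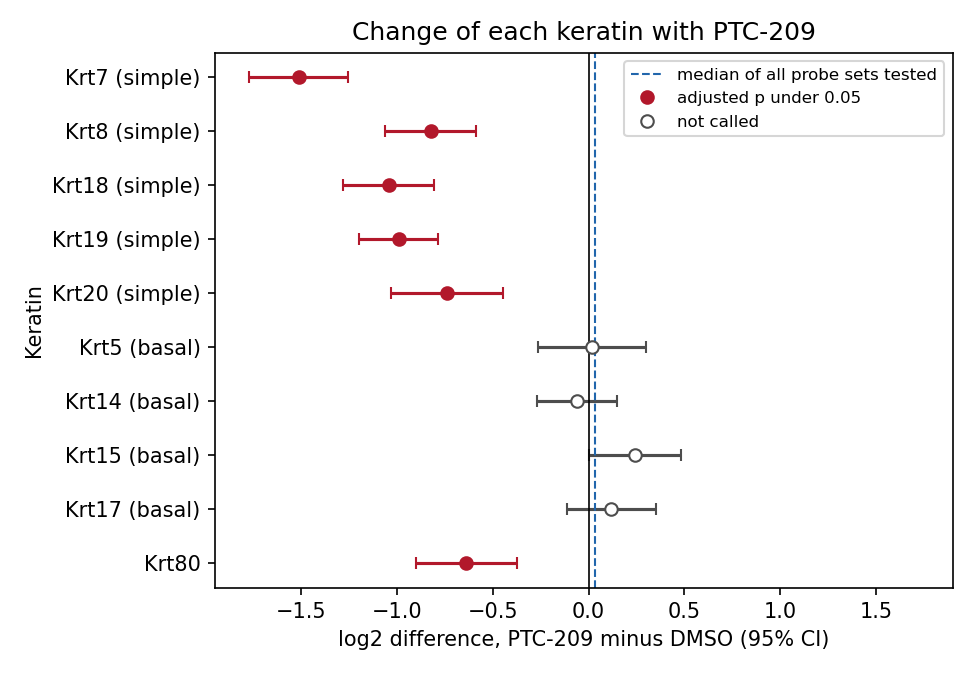
Log2 difference of each keratin, PTC-209 minus DMSO, with its 95% confidence interval from limma (3 arrays a group). The intervals of the 5 simple keratins and Krt80 lie wholly below 0, and those of the 4 basal keratins reach 0; the dashed line is the median of all probe sets tested, 0.03.

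The classes were also followed array by array, as the median over a class of each keratin's distance from its DMSO mean. For the simple keratins this median was -0.93, -1.05 and -0.99 log2 units on PTC-209 replicates 1, 2 and 3, against 0.12, -0.04 and -0.05 on the DMSO replicates. For the basal keratins it was 0.07, 0.16 and 0.00 on the PTC-209 arrays, against -0.16, 0.05 and 0.11 on the DMSO arrays. The simple keratins were thus about a log2 unit lower on each PTC-209 array, and the basal medians overlapped between the groups. The difference between the class medians was -1.06 log2 units. It is a score over genes chosen by name and was given no test.

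**Figure D3:**
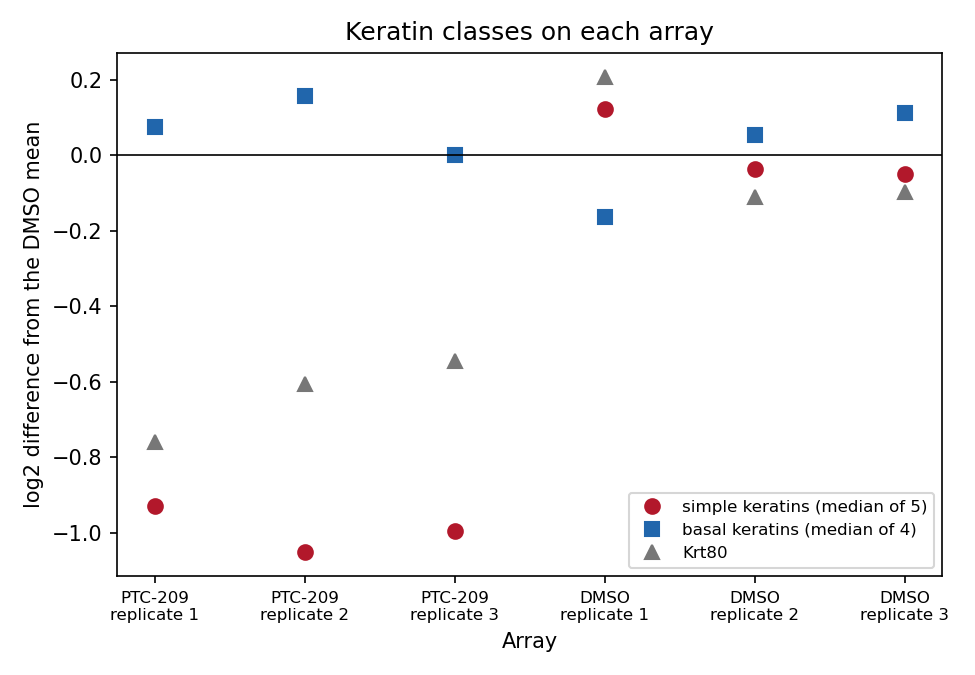
Median distance from the DMSO mean, in log2 units, for the 5 simple keratins, the 4 basal keratins and Krt80 on each array. Simple keratins lie between -0.93 and -1.05 on the PTC-209 arrays and basal keratins between 0.00 and 0.16.

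The keratins that fell lie on both chromosomes that carry keratin clusters, 11 and 15. In the order of protein-coding genes of the RefSeq table (assembly GRCm38.p6, used for order only), Krt80 and Krt7 are direct neighbours on chromosome 15, and so are Krt8 and Krt18. Both pairs fell. Eif4b, a translation initiation factor gene on the other side of Krt18, rose (11.16 ± 0.07 with PTC-209 and 10.71 ± 0.06 with DMSO, SD, n = 3 each; limma adjusted p = 0.00541). Krt5 lies on the same chromosome between Krt6a and Krt71, and none of these 3 passed the test. On chromosome 11 Krt19, which fell, stands between Krt15 and Krt9, and neither of these passed the test. Krt20, which also fell, stands between Krt12 and Krt23, which did not pass. Krt17, which did not pass, lies beside Krt42, which fell.

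Promoter sequences are shown for the simple keratins that fell, because they moved together. RefSeq windows were found for 6 of the 10 keratins, and the 250 bases before the gene start were read 5′ to 3′ on the gene's strand, in GRCm38.p6. They are chr15:101412153-101412402 on the plus strand for Krt7, chr15:102004343-102004592 on the minus strand for Krt8, chr15:102027966-102028215 on the plus strand for Krt18 and chr11:99438154-99438403 on the minus strand for Krt20. Capitals mark matches, on either strand, to the GC box GGGCGG, the TATA box TATAAA, the CCAAT box CCAAT and the AP-1 motif TGANTCA.
Krt7: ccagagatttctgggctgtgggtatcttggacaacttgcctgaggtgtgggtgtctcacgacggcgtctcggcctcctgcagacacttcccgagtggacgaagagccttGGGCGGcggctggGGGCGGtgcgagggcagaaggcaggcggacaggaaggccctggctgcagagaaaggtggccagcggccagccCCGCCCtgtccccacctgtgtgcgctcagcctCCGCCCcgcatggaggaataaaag
Krt8: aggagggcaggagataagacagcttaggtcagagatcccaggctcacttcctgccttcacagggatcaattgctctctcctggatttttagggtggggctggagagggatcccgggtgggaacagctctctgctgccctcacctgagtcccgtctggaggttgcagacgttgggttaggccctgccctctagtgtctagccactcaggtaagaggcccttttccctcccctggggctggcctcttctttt
Krt18: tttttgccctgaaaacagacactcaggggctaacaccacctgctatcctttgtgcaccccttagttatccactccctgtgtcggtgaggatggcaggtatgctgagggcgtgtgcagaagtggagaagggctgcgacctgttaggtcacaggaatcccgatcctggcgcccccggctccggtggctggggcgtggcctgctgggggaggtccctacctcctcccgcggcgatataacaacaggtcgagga
Krt20: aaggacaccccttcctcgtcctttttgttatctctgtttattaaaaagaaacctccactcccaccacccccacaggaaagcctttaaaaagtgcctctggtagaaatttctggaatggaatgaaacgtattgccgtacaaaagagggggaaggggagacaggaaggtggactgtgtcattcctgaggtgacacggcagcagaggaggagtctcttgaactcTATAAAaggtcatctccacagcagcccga
Krt7 held 4 GC boxes, which start 141, 128, 56 and 24 bases before the gene start, and Krt20 held a TATA box 29 bases before it. No match overlapped another. The Krt8 and Krt18 windows, and those of Krt5 and Krt14, held none of the 4 motifs. A GC box was found in 32.7% of all 32851 windows of this length, a TATA box in 12.4%, a CCAAT box in 33.8% and the AP-1 motif in 6.75%. The 4 windows printed, of Krt7, Krt8, Krt18 and Krt20, had no motif of these 4 in common; Krt19 and Krt80, which also fell, were not read. Their G and C content was 66.0% for Krt7, 58.0% for Krt8, 60.4% for Krt18 and 48.0% for Krt20, against a median of 52.4% over all windows.

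The other 42 measured keratins, mostly of hair, epidermis and cornea, had log2 differences between -0.55 and 0.38. Of these 1 rose and 2 fell, with a median log2 difference of 0.06, and 8 reached the median level in their brighter group. These shares lie below the 11.8% called in each direction over all probe sets. Krt10, the type I keratin of suprabasal epidermis, rose to 5.71 ± 0.05 with PTC-209, against 5.33 ± 0.09 with DMSO (limma adjusted p = 0.016). Krt27, a hair follicle keratin, fell to 4.78 ± 0.14, against 5.33 ± 0.04 with DMSO (limma adjusted p = 0.0033), and Krt42 fell to 4.55 ± 0.14, against 4.96 ± 0.06 (limma adjusted p = 0.0185; SD, n = 3 each). The counts were 0 and 1 without PTC-209 replicate 1, 2 and 2 without PTC-209 replicate 2, 1 and 1 without DMSO replicate 3, and 0 and 0 when the test asked for a fold above 1.2. Keratin genes share sequence, and the probe sequences were not used here, so signal from a close relative cannot be separated for a dim member.

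Of 15 intermediate filament genes outside the keratin family 3 fell and 0 rose (0 had a rise with an unadjusted p under 0.05). The share of falls is above the 11.8% of all probe sets that fell. The median log2 difference was -0.03, but only 7 of the 15 reached the median level in their brighter group. The list median therefore rests in part on dim genes. Vimentin, Vim, the filament of mesenchymal and many cultured cells, had log2 values of 11.36, 11.36 and 11.34 with PTC-209, against 11.49, 11.59 and 11.56 with DMSO. All PTC-209 arrays were lower, by 0.19 log2 units, which did not pass (limma adjusted p = 0.167). The nuclear lamins Lmnb1 and Lmna were 1.93-fold and 1.54-fold lower, and nestin, Nes, a filament of progenitor cells, was 1.75-fold lower (limma adjusted p = 6.40e-05, 0.00297 and 0.00151).

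Of 13 measured genes of desmosomes and plakins, which anchor keratin filaments, 2 rose and 4 fell, with a median of -0.14. The share of rises is near the 11.8% of all probe sets that rose, and nothing is read from it about the list. The share of falls is above the 11.8% of all probe sets that fell. Desmoplakin, Dsp, which ties keratin filaments to the desmosome, had log2 values of 9.36, 9.23 and 9.04 with PTC-209, against 8.54, 8.25 and 8.39 with DMSO. It was higher on every PTC-209 array, by 1.76-fold (limma adjusted p = 0.000806). Plakoglobin, Jup, which links desmoplakin to the desmosomal cadherins, was 1.60-fold higher (limma adjusted p = 0.00336). Periplakin, Ppl, a plakin that binds keratin, was lower, at 5.15, 5.07 and 5.12 with PTC-209, against 6.90, 6.32 and 6.43 with DMSO (2.71-fold, limma adjusted p = 7.76e-05). Pkp4, a relative of the plakophilins, was 1.44-fold lower (limma adjusted p = 0.00288). Falls numbered 3 without PTC-209 replicate 1 or DMSO replicate 3, and 1 when a fold above 1.2 was asked for.

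At hemidesmosomes 1 of 8 measured genes fell and 0 rose (0 had a rise with an unadjusted p under 0.05), with a median of -0.03. The share of falls is near the 11.8% of all probe sets that fell, and nothing is read from it about the list. The gene that fell was the integrin subunit Itgb4, which binds the keratin linker plectin, at 6.08, 6.14 and 6.18 with PTC-209, against 7.25, 7.18 and 7.02 with DMSO. It was 2.02-fold lower and the groups did not overlap (limma adjusted p = 5.95e-05). Plectin itself, Plec, differed by -0.32 log2 units and did not pass (limma adjusted p = 0.167).

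Among 12 genes whose proteins bind keratins or act in their turnover 1 rose and 1 fell, with a median of -0.10. Both shares lie below the 11.8% of all probe sets called in each direction, and nothing is read from them about the list. Sqstm1, p62, which gathers with keratin 8 and 18 in the Mallory bodies of liver disease, had log2 values of 11.22, 11.22 and 11.15 with PTC-209, against 8.40, 8.40 and 8.27 with DMSO. It was 7.16-fold higher (limma adjusted p = 2.51e-07). Cryab, a small heat shock protein that binds intermediate filaments, was 2.92-fold lower (limma adjusted p = 2.94e-06). A second gene rose without PTC-209 replicate 2 or DMSO replicate 1, with a trended prior, with array weights, with a gene's probe sets averaged, and without dim probe sets.

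Of 21 measured genes listed as regulators and adhesion genes of simple epithelium 5 rose and 2 fell, with a median log2 difference of 0.23. Cdh1, Epcam and Esrp1 are also read below as general epithelial markers, so the list is not particular to simple epithelium. Over all probe sets tested 11.8% were called in each direction, so the share of falls is no larger than the background and that of rises is larger. Klf5, a transcription factor of gut and airway epithelium, had values of 8.97, 9.07 and 9.08 with PTC-209, against 8.10, 7.81 and 7.69 with DMSO, a 2.26-fold higher level (limma adjusted p = 7.66e-05). The epithelial splicing factor Esrp1 was 1.69-fold higher (limma adjusted p = 0.000426). The ETS factors Ehf and Elf3 fell, Ehf to 4.003 ± 0.206 with PTC-209, against 4.976 ± 0.230 with DMSO, and Elf3 to 4.29 ± 0.32, against 5.04 ± 0.13 (limma adjusted p = 0.000882 and 0.00654; SD, n = 3 each). The other 3 rises, Esrp2, Klf4 and E-cadherin, Cdh1, are named after their values were seen. Cdh1 rose by 0.35 log2 units (limma adjusted p = 0.0384), and this call ended without PTC-209 replicate 1, 2 or 3 or DMSO replicate 2 or 3, and after cyclic loess (adjusted p = 0.143) or median centring (adjusted p = 0.061). With a fold above 1.2 asked for, 2 rose and 1 fell.

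Of 13 measured regulators and envelope genes of basal and squamous epithelium 3 fell and 0 rose (0 had a rise with an unadjusted p under 0.05), with a median of -0.03. The share of falls is above the 11.8% of all probe sets that fell. The fall of Sprr1a, a cornified envelope precursor that is also induced by injury, was the largest, at 6.62, 6.91 and 6.83 with PTC-209, against 10.21, 10.20 and 10.15 with DMSO. It was 10.6-fold lower (limma adjusted p = 1.89e-07). Notch1 was 1.38-fold lower (limma adjusted p = 0.0273), and involucrin, Ivl, fell at levels under the median in both groups (limma adjusted p = 0.049). The call of Notch1 ended without PTC-209 replicate 1 or 3 or DMSO replicate 1, and that of Ivl without PTC-209 replicate 1 or 2 or DMSO replicate 1 or 2 and with the replicate number as a block (adjusted p = 0.0715). Falls numbered 1 without PTC-209 replicate 1 or DMSO replicate 1, with the control probes kept, or with a fold above 1.2 asked for. Trp63, the master factor of basal cells, was under the median level in both groups (3.89 ± 0.09 with PTC-209 and 3.76 ± 0.22 with DMSO, SD, n = 3 each).

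**Figure D4:**
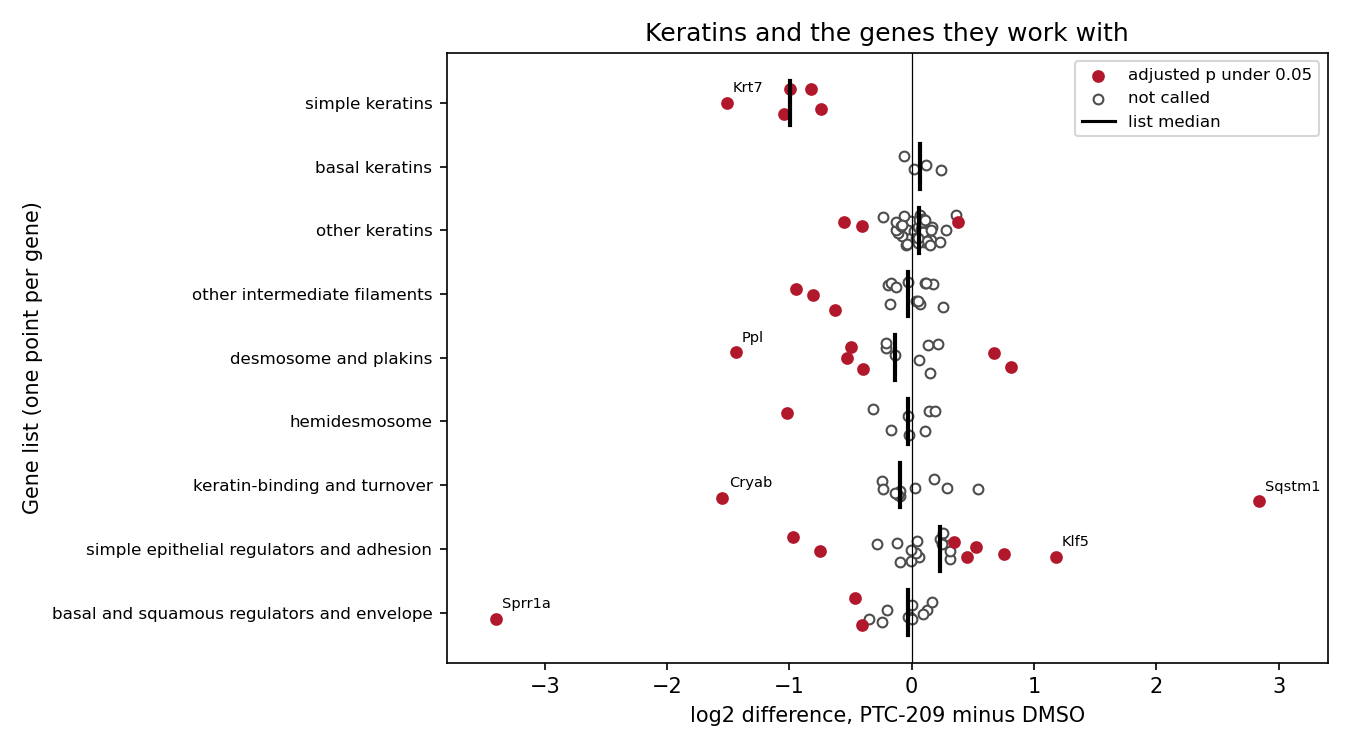
Log2 difference, PTC-209 minus DMSO, of each gene in 9 lists (points; filled where the limma adjusted p was under 0.05) with the list median (vertical bar). The simple keratins lie between -1.51 and -0.74, while the basal and the other keratins gather near 0 and the desmosome and simple epithelial lists hold called genes on both sides of 0.

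The labelled epithelial origin was set against marker lists, which were chosen with earlier results of these data known. The epithelial list shares Krt8, Krt18 and Krt19 with the keratins above, and Cdh1, Epcam and Esrp1 with the simple epithelial list. Their values are thus not separate observations. All 8 epithelial markers reached the median level in their brighter group. Of these 3 fell, the keratins Krt8, Krt18 and Krt19, and 3 rose, Cdh1, Esrp1 and the claudin Cldn4. Epcam differed by -0.29 log2 units (limma adjusted p = 0.0623). The series title speaks of pulmonary adenocarcinomas, so lung epithelial markers were read too. Of 12 such markers 3 reached the median level, the water channel Aqp5 (5.33 ± 0.04 with PTC-209 and 5.47 ± 0.09 with DMSO), Ager of alveolar type I cells (4.89 ± 0.05 with PTC-209 and 4.75 ± 0.06 with DMSO) and the surfactant gene Sftpa1 (4.51 ± 0.08 with PTC-209 and 4.33 ± 0.03 with DMSO; SD, n = 3 each). The other 9 did not, among them the lineage factor Nkx2-1 and the surfactant gene Sftpc. In limma 0 of the 12 changed, and 0 had an unadjusted p under 0.05, though 1 passed without DMSO replicate 3.

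Markers of other cell types gave at most 1 call a list. In the short leukocyte, endothelial and mesothelial lists that is a share above the 11.8% of all probe sets called in each direction, and nothing is read from the counts. In their brighter group 4 of 9 fibroblast and 2 of 7 leukocyte markers reached the median level. So did 1 of 6 endothelial and 3 of 5 mesothelial markers. Of 9 fibroblast markers 0 changed in limma (1 at an unadjusted p under 0.05, and 1 rose without PTC-209 replicate 3, with array weights or without dim probe sets), with mean list levels of 3.82 to 3.99 with PTC-209 and 3.80 to 3.85 with DMSO. Of 7 leukocyte markers 1 rose, Cd68, a lysosomal membrane protein (10.03 ± 0.04 with PTC-209 and 7.42 ± 0.04 with DMSO), and Ptprc and Adgre1 were under the median level. Adgre1 was lower with PTC-209 at an unadjusted limma p of 0.0242, which did not pass (limma adjusted p = 0.0881). The mean leukocyte list level was 4.24 to 4.33 with PTC-209 and 3.78 to 3.90 with DMSO. Of 6 endothelial markers 1 fell, Cdh5 (8.15 ± 0.21 with PTC-209 and 9.48 ± 0.05 with DMSO), with Pecam1, Kdr and Tek under the median level, and the list lay at 4.26 to 4.36 with PTC-209 and 4.35 to 4.46 with DMSO. A second endothelial gene, a rise, passed without DMSO replicate 2. Of 5 mesothelial markers 1 fell, Msln, at 8.15 ± 0.06 with PTC-209 and 9.42 ± 0.16 with DMSO (SD, n = 3 each), and that list lay at 4.79 to 4.96 with PTC-209 and 5.04 to 5.09 with DMSO. In this list 1 marker had a rise at an unadjusted p under 0.05, and 1 rose in limma with array weights, with probe sets averaged or without dim probe sets. The median log2 difference was 0.14 over the leukocyte, 0.12 over the endothelial and 0.03 over the mesothelial list. A mean list level includes the called gene, so its shift is not one of the list as a whole. The part of such cells in the keratin differences was not tested. The knocked out gene, Cebpa, was under the median level on all 6 arrays, and the sources used here do not place its probe set inside or outside the deletion.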

How the data were processed

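The 6 mouse arrays in 2 groups of 3 were compared, with groups and replicate numbers taken from the titles. The free-text descriptions speak of embryo stages, which does not match the titles, source or treatment, and were not used. The deposited table holds log2 expression values made with RMA (background correction, quantile normalization, probe summary), per the submitters' processing notes; the sources used here give neither its version nor a genome build. The values fit a log2 scale, with array medians from 4.07 to 4.14. Quantile normalization makes the arrays alike, so a change common to most genes would be hidden.

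A block of 6569 control probes, known by its run of identifiers with no listed gene, was left out of the 34760 probe sets. Of the 28191 tested, 21640 have 1 symbol, 1321 several and 5230 none listed. A gene is represented by the single-symbol probe set with the highest mean. Groups were compared with limma 3.58.1 in R 4.3.3 (treatment as the only term, eBayes) over all probe sets, with 4 residual and 5.27 prior degrees of freedom, and the fit was tested on simulated data. Correlations between arrays were 0.992 to 0.996 within and 0.97 to 0.974 between groups. The number of arrays, 3 a group, limits the precision. Figures were drawn with matplotlib 3.10.9.

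Named were all 10 keratins and, of each list, up to 4 called genes with the largest difference whose brighter group reached the median level; genes named to spell out a count of at most 5, and uncalled genes named as background to the keratins (such as Vim and Plec) or as defining markers of a list (such as Trp63, Nkx2-1 and Ptprc), were picked with their values in view. The members and lists were chosen with earlier results of these data known. The lists are the other keratins, other intermediate filaments, desmosomes and plakins, hemidesmosomes, keratin-binding proteins, simple epithelial and basal regulators, and markers of epithelium, lung epithelium, fibroblasts, leukocytes, endothelium and mesothelium. The alternatives were array weights, median centring, cyclic loess, a replicate block, a minimum fold of 1.2, a trended robust prior, a fit without dim probe sets, averaging a gene's probe sets and leaving out each array, and, added after seeing the data, keeping the control block.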

Additional observations from a re-analysis of the deposited data

How the results depend on the processing

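The falls of Krt7, Krt8, Krt18, Krt19, Krt20 and Krt80 passed under each of the 15 alternatives run, with log2 differences of -1.61 to -1.45, -0.93 to -0.76, -1.15 to -0.97, -1.08 to -0.96, -0.87 to -0.61 and -0.69 to -0.53. The largest adjusted p was 0.0441, for Krt80. Each keratin has 1 probe set, so averaging a gene's probe sets could not alter its log2 difference. None of the basal keratins passed under any alternative run. Krt5, which was not called, changed sign after cyclic loess (-0.0148), with array weights (-0.00288) and without PTC-209 replicate 2 (-0.0659) or DMSO replicate 1 (-0.0694), within a range of -0.0694 to 0.109 over all alternatives. Leaving out dim probe sets removed Krt5, Krt15 and Krt17 from the fit. Requiring a fold above 1.2 gave 1560 probe sets higher and 1931 lower, against 3340 and 3333, since it is a stricter test. The titles share replicate numbers, and no other label pairs the samples. Deviations from the group means of same-numbered arrays correlated at 0.231, 0.0703 and 0.0735, and PTC-209 replicate 3 correlated best with DMSO replicate 2 (0.105). PTC-209 replicate 1 correlated at -0.163 and -0.133 with DMSO replicates 2 and 3. DMSO replicate 1 correlated at -0.11 and -0.14 with PTC-209 replicates 2 and 3. The replicate 1 arrays thus deviated alike in both groups, and what they share was not tested. With the replicate block 3628 probe sets were higher and 3483 lower, and the same 6 keratins fell. Levels under the median limit what can be said of basal keratins.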
